A study of Mus musculus with 48 samples.

Results

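The phase II conjugation enzymes of mouse liver examined here are the UDP-glucuronosyltransferases (UGT), the glutathione S-transferases (GST) and the cytosolic sulphotransferases (SULT). Their members were the protein-coding genes whose symbol starts with Ugt1, Ugt2, Ugt3, Gst or Sult and whose mean level over 48 liver libraries was at least 1 CPM, a read per 1000000 reads on genes. Of 67 such genes among 55416 annotated genes, 45 reached that level and 22 did not. The members were 5 of 9 UGT1 genes, 8 of 10 UGT2 genes, both UGT3 genes, 22 of 25 GST genes and 8 of 21 SULT genes. Their mean levels ran from 1.19 to 1849 CPM, and the highest gene under the limit, Ugt1a7c, had a mean of 0.69 CPM.

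The libraries were bulk RNA-seq of whole livers from mice labelled C57Bl/6J in 6 groups of 8, all fed a western diet for 8 weeks from about 8 weeks of age. DN:WT, DN:HET and DN:HOM were male littermates carrying 0, 1 or 2 copies of a CRISPR knock-in W441R allele of LXRα, a dominant negative change in the oxysterol receptor encoded by Nr1h3. KO:WT, KO:HET and KO:HOM carried 0, 1 or 2 copies of an LXRα knockout allele, and came from a separate study at another site, where per the methods the line had a mixed origin and was backcrossed to C57BL/6 with no substrain given. Both alleles are present in every cell of the body from conception, so that no effect could be assigned to the liver alone. Some mice of the DN study were killed before the planned end of the diet. The study's figure legend gives the RNA as taken from mice killed at the planned end. In the main text and methods the sex was stated outright for the DN study only, and the knockout study was described as repeating that experiment. All 48 libraries had the male pattern, with Xist at most 0.48 CPM and Ddx3y at 63.5 to 108 CPM. Since whole liver was sequenced, fewer cells of a type and less RNA per cell cannot be told apart.

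Phase II enzymes join a small polar group to a drug, hormone, bile acid, bilirubin or reactive lipid, which makes it more soluble and lets export pumps carry it into bile or blood. UGTs sit in the endoplasmic reticulum and transfer glucuronic acid from UDP-glucuronic acid, and the UGT3 enzymes use other sugars. GSTs join glutathione to electrophiles such as epoxides and lipid aldehydes, and SULTs transfer sulphonate from the cofactor PAPS to hydroxyl groups of phenols, steroids and bile acids. Hepatocytes hold most of this capacity, and the expression of several members is known to follow xenobiotic receptors, the oxidant sensor NRF2 and, in mice, sex through pulsatile growth hormone.

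Many members are near-identical copies of each other, which bears on what a read can show. The reads were counted only where they mapped to a single place and to a single gene. The 5 UGT1 members lie in 1 cluster of chromosome 1, and each transcript joins an exon of its own to the same downstream exons, so that a read on the downstream exons falls on several genes and was not counted. In the junctions below, from the GRCm39 genome on the + strand, the last 30 bases of each own exon are in lower case, and the first 30 bases of the shared exon, chr1:88142766-88142795, are in capitals.
Ugt1a1 (own exon chr1:88139679-88140593): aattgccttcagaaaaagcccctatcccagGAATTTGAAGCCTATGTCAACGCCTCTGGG
Ugt1a5 (own exon chr1:88093707-88094625): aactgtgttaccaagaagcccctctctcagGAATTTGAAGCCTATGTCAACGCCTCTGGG
Ugt1a6a (own exon chr1:88066100-88067053): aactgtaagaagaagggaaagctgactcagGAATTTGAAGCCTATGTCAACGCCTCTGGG
Ugt1a6b (own exon chr1:88034663-88035521): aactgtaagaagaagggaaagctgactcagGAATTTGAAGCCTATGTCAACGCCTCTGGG
Ugt1a9 (own exon chr1:87998450-87999400): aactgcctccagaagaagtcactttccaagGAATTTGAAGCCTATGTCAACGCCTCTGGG

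The 30 bases of the own exon are the same in Ugt1a6a and Ugt1a6b. Sharing was measured as the percentage of 100-base windows of a member's canonical transcript that occur unchanged in another gene. For Ugt1a6a it was 98.4%, 97.1% with Ugt1a7c, and for Ugt1a6b 79.9%, so that little of the first and a part of the second can give a count of its own, and both genes' values are uncertain. Outside the UGT1 cluster it was 85.3% for Gsta13, 80.8% for Gsta1, 33.3% for Gsta2, 62.6% for Gstp2 and 47.3% for Gstp1. Gsta1 shared mainly with Gsta13, and Gstp2 with Gstp1 and the pseudogene Gstp-ps, and the split of counts within these pairs is uncertain. For Ugt2b38 it was 24.2%, for Gstt3 23.8%, for Ugt2b5 18.2%, for Gstm2 17.8% and for Gstm3 13.8%, and no SULT member exceeded 2.32%.

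The near-identity of the copies extends upstream of the genes. The stretch shown, from GRCm39, comes from within 250 bases of the annotated start and has no difference between Gsta1 and Gsta13, so 1 line stands for both. The Gstp1 and Gstp2 lines are read 5′ to 3′ on the − strand, and capitals mark the 7 aligned bases that differ between them.
Gsta1 (chr9:78137807-78137926, + strand) and Gsta13 (chr9:78164280-78164399, + strand): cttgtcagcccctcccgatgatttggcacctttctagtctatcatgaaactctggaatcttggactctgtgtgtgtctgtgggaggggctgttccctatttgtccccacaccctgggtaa
Gstp1 (chr19:4088069-4088188, − strand): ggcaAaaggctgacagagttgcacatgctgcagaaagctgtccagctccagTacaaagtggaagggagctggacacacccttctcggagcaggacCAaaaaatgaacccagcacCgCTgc
Gstp2 (chr19:4092391-4092510, − strand): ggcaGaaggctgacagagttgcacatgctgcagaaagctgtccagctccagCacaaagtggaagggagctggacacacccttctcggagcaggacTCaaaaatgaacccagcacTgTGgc

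Over the aligned columns within 250 bases of the start, Gsta1 and Gsta13 were identical at 99.6% of 239, Gstp1 and Gstp2 at 94.0% of 133, and Gsta1 and Gsta2 at 67.2% of 238.

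Each library held 5332897 to 16961379 reads on genes (median 15879971), and the 2 shallowest were the only ones under 10000000. The library labelled DN:WT animal 10 and the library labelled DN:HOM animal 12 were set aside, because the study's own per-animal values for 4 bile acid genes matched the other 22 DN livers and not these 2. Both libraries go against their labels: that labelled DN:WT animal 10 had a macrophage marker sum of 1853 and a cholangiocyte marker sum of 1225 CPM, near the values of the other DN:HOM livers, and that labelled DN:HOM animal 12 had 127 and 68.99 CPM, within those of the other DN:WT livers. An exchange of labels or tubes between them is suspected but was not tested, and if it took place every value with all 48 as labelled holds a wrongly labelled liver in each group. The comparisons below rest on the remaining 46 livers, 7 each in DN:WT and DN:HOM and 8 in every other group, and counts with all 48 as labelled stand beside them. The library labelled DN:WT animal 10 lay outside the range of the other DN:WT livers for 37 of 45 members, and that labelled DN:HOM animal 12 outside that of the other DN:HOM livers for 39. For example, Gstp2 was at 38.5 CPM in the library labelled DN:WT animal 10, against 1.64 to 3.33 CPM in the other DN:WT livers, and at 3.29 CPM in the library labelled DN:HOM animal 12, against 24.4 to 137 CPM in the other DN:HOM livers.

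The targeted gene Nr1h3 was measured first. It fell in KO:HOM to a median of 26.3 CPM against 90.2 in KO:WT (log2 fold change -1.80 ± 0.06, adjusted p = 3.31e-27), and reads on the gene remained. In KO:HET its median was 59.1 CPM (log2 fold change -0.67 ± 0.06, adjusted p = 5.99e-11). In DN:HOM the median was 72.7 CPM against 92.6 in DN:WT (log2 fold change -0.32 ± 0.06, adjusted p = 1.47e-05), a direction that turns when libraries are scaled by their size alone. DN:HET had 92.8 CPM.

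Unless stated, levels are CPM scaled with TMM factors, values are the median of a group with its lowest to highest liver in parentheses, and differences are log2 fold changes ± SE from edgeR's quasi-likelihood test with the p-value adjusted over all 15711 genes tested (Benjamini-Hochberg). A gene was called where its adjusted p was under 0.05.

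Markers of liver cell types moved with genotype, and their values stand here for all results below. Summed over 10 macrophage markers, the level was 122 to 240.2 CPM in DN:WT, 152 to 1102 in DN:HET and 1180 to 1900 in DN:HOM, with all 10 called higher in DN:HOM, and 91.8 to 253 in KO:WT and 335 to 1303 in KO:HOM, with 9 of 10 called higher. The 10 cholangiocyte markers summed to 52.7 to 89.3 CPM in DN:WT and 782 to 1124 in DN:HOM (9 of 10 higher), and in KO:HOM 1 rose and 1 fell. Stellate and matrix markers summed to 189.6 to 276 CPM in DN:WT and 855 to 1189 in DN:HOM (9 of 10 higher), and to 181 to 424 in KO:WT and 275 to 529.8 in KO:HOM (7 of 10 higher). The ranges of these sums did not overlap between DN:WT and DN:HOM, and the hepatocyte sum went the other way. The 10 hepatocyte markers summed to 75050 to 91260 CPM in DN:WT and 38530 to 50910 in DN:HOM, with 8 lower in DN:HOM and 6 lower in KO:HOM. T cell markers were higher for 6 of 10 in DN:HOM and 10 of 10 in KO:HOM. Of 8 endothelial markers 1 was higher and 5 were lower in DN:HOM, and 1 was higher and 1 lower in KO:HOM. Of 5 erythroid markers tested 2 were lower in DN:HOM and 1 in KO:HOM. As labelled, the 48 livers gave other counts: 9 macrophage, 8 cholangiocyte, 9 stellate and matrix, 7 hepatocyte, 2 T cell, 4 endothelial and 1 erythroid markers were called in DN:HOM, and 7, 0, 2, 3, 10, 2 and 0 in KO:HOM. No marker was at 0 in every liver of a group, and the part of these cells in the members' differences was not tested.

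Compared per kilobase of exonic sequence that lies outside the exons of other annotated genes, the wild-type liver was led by a few members. In DN:WT the 3 highest were Gstm1, a mu-class GST, at a median of 734 CPM per kilobase (429 to 833), Ugt2b5, a steroid glucuronosyltransferase, at 378 (322 to 391) and Gstp1, a pi-class GST known to be higher in male mouse liver, at 319 (286 to 472). The alpha-class Gsta3, which detoxifies aflatoxin epoxide in mice, followed at 275 (240 to 307). Gstm1 lay above the range of Ugt2b5, and the others of the 8 highest each overlapped the next in order. Sult2a8, a bile acid sulphotransferase, was the highest SULT at 169.5 (133 to 211), and Ugt1a1, the bilirubin glucuronosyltransferase, the highest UGT1 member at 166 (130 to 197). At the other end stood Gstcd at 0.521 and Sult1e1, the oestrogen sulphotransferase, at 0.473 CPM per kilobase. The length used matters for the order. It still holds sequence that recurs unchanged elsewhere in the genome, where reads were not counted, so the levels and ranks of Gsta1, Gsta13, Gsta2, Gstp1 and Gstp2 are uncertain, as are those of Ugt1a6a and Ugt1a6b. With all exonic bases Ugt1a1 moved from rank 8 to 19, and with the canonical transcript Gsta3 moved from 4 to 2, Sult2a8 from 7 to 4, Gstz1 from 16 to 6 and Ugt2b5 from 2 to 5, so that the 3 highest were then Gstm1, Gsta3 and Gstp1. In DN:HOM, Gstm1 stayed first at a median of 1025 CPM per kilobase, Gstm3 stood at rank 3 with 489.7 after rank 14 in DN:WT, and Sult2a8 stood at rank 25 with 23.1 after rank 7.

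**Figure D1:**
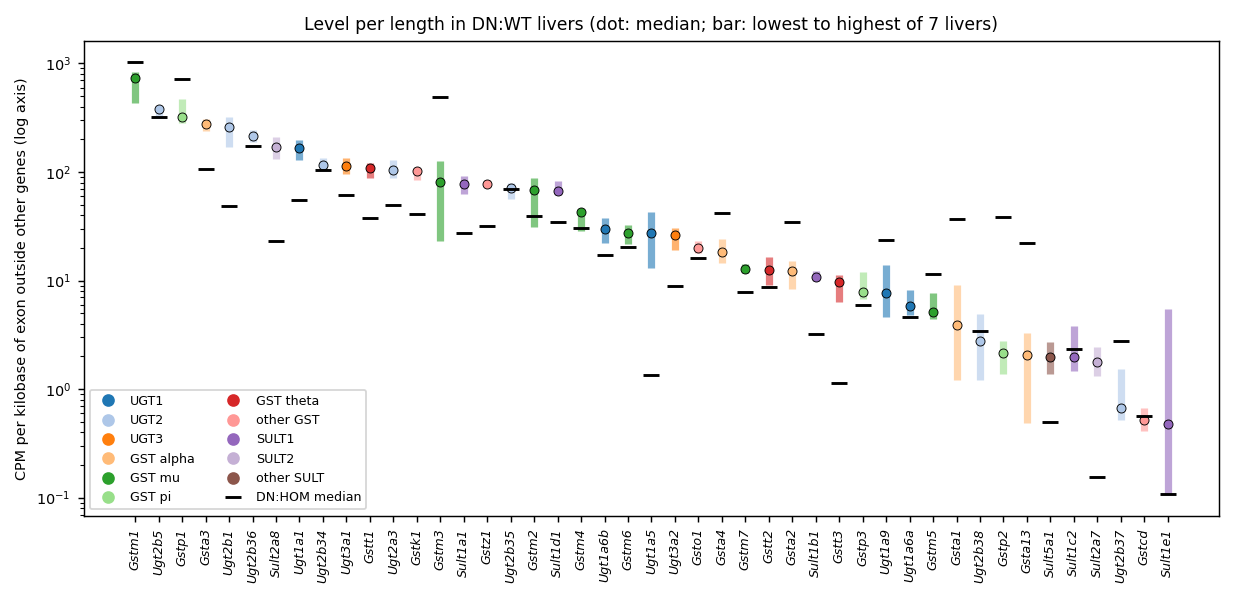
Level of each of the 45 members in CPM per kilobase of exonic sequence outside the exons of other genes, on a log axis, with no correction for sequence that recurs elsewhere. Dots are the medians and bars the lowest to highest of the 7 DN:WT livers, and dashes are the DN:HOM medians; Gstm1 is highest at 734 and Sult1e1 lowest at 0.473 CPM per kilobase in DN:WT.

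The first comparison asks what 2 copies of the dominant negative allele did to the conjugation enzymes. Most members changed, in both directions, and the directions differed by family. SULTs, UGT3s, theta-class GSTs and the GSTs outside the alpha, mu, pi and theta classes fell without exception among called genes. Alpha-class GSTs mostly rose, and the mu and pi classes and the UGT1 and UGT2 families held members going either way. Of the 45 members, 38 were called in DN:HOM against DN:WT, 11 higher and 27 lower, beside 59.1% of all genes tested, 29.1% higher and 30% lower. In 26 members the change was at least 2-fold, a size reached by 22.98% of all genes. The livers of the groups did not overlap for 31 members, beside 33.3% of all genes. The median log2 fold change was -0.51 over the members and -0.01 over all genes, and the comparison with all 48 livers as labelled called 34 members, 10 higher and 24 lower, beside 48% of genes. All 38 called log2 fold changes were smaller in size with all 48 livers, none of them with another sign, and 9 moved by over 1.5 times in fold: Gsta1 (2.11), Gsta13 (2.41), Gstm3 (1.82), Gstp2 (2.78), Gstt3 (-1.68), Sult2a7 (-1.57), Sult2a8 (-1.81), Ugt1a5 (-2.02) and Ugt2b1 (-1.54). Scaled by library size alone, which shifts the median of all genes by 0.42, 35 members were called with 15 higher and 20 lower, and 9283 genes were called higher and 1738 lower in place of 4579 and 4713. Under that scaling the signs of Gstm4, Gsto1, Ugt2b36, Sult1c2, Ugt2b5 and Ugt2b34 turn.

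**Figure D2:**
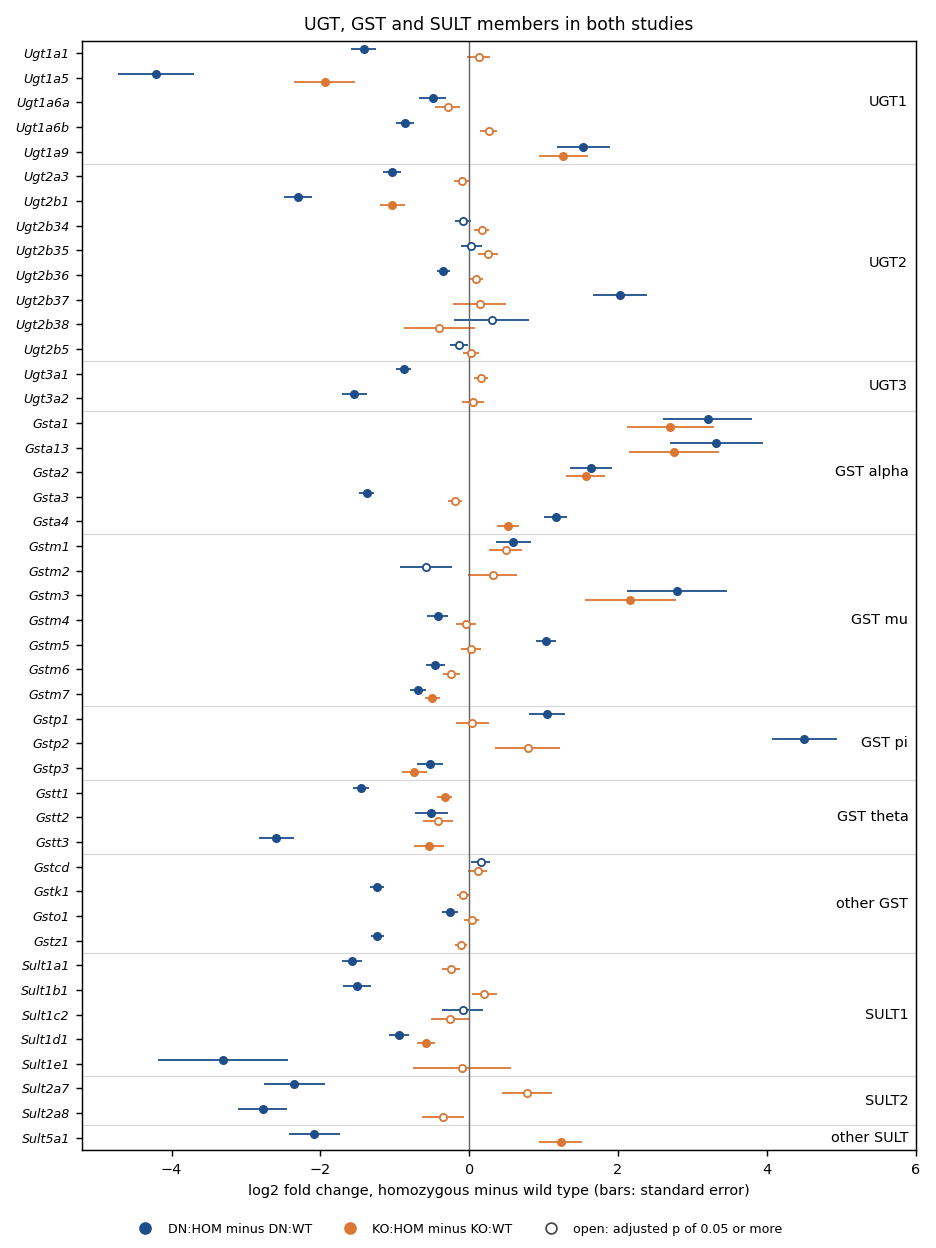
Log2 fold changes of the 45 members in DN:HOM against DN:WT and in KO:HOM against KO:WT, ordered by family, with error bars of 1 SE and filled symbols for an adjusted p under 0.05. The DN values run from -4.21 for Ugt1a5 to 4.50 for Gstp2, and 38 DN and 14 KO values are filled.

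Of the alpha-class GSTs 4 rose and the abundant one fell. Gsta1 (chr9:78137927-78149966), an inducible alpha-class enzyme, was at 4.93 CPM (1.53 to 11.6) in DN:WT and 46.8 CPM (23.7 to 74.9) in DN:HOM, a 9.20-fold rise, a log2 fold change of 3.20 ± 0.60 (adjusted p = 1.12e-05). Its near-identical neighbour Gsta13 (chr9:78164411-78176451) went from 2.36 CPM (0.558 to 3.75) to 25.3 CPM (9.12 to 32.3), a log2 fold change of 3.32 ± 0.62 (adjusted p = 1.22e-05). In both genes every DN:HOM liver lay above every DN:WT liver. Gsta2 (chr9:78238292-78263077) followed with 26.3 CPM (18.01 to 32.3) against 74.2 CPM (59.9 to 109), a log2 fold change of 1.64 ± 0.28 (adjusted p = 2.63e-06). Gsta4 (chr9:78090056-78117763), which conjugates the lipid peroxidation product 4-hydroxynonenal, was at 50.7 CPM (39.7 to 66.3) in DN:WT and 114 CPM (106 to 134) in DN:HOM, a log2 fold change of 1.16 ± 0.16 (adjusted p = 2.91e-08), again with no overlap. Gsta3 (chr1:21310806-21335885) lies on another chromosome from these, and it went the other way. It fell 2.60-fold, from 1575 CPM (1374 to 1757) to 609 CPM (462 to 804), a log2 fold change of -1.38 ± 0.10 (adjusted p = 3.66e-15). Gsta3 made up 93.9 to 95.9% of the alpha-class sum in DN:WT, so the class as a whole fell while 4 of its 5 members rose.

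The mu class, a cluster on chromosome 3, split 3 higher, 3 lower and 1 not called. Gstm3 (chr3:107871012-107881730) rose most, from 142 CPM (40.5 to 219) to 851 CPM (671 to 985), a log2 fold change of 2.79 ± 0.67 (adjusted p = 3.97e-04), and its groups did not overlap. Gstm1 (chr3:107919380-107925380), the most abundant, was at 1846 CPM (1079 to 2094) in DN:WT and 2579 CPM (2130 to 2915) in DN:HOM, a log2 fold change of 0.59 ± 0.24 (adjusted p = 0.0293). That call was lost with all 48 livers (adjusted p = 0.0655) and in 5 of 46 fits that left out 1 liver (DN:WT animals 5, 13 and 28 and DN:HOM animals 19 and 31). Gstm5 rose with a log2 fold change of 1.03 ± 0.14 (adjusted p = 1.58e-08). Gstm7 (chr3:107832278-107839187) fell from 53.7 CPM (48.7 to 60.2) to 33.2 CPM (31.2 to 35.6), a log2 fold change of -0.69 ± 0.11 (adjusted p = 3.29e-07), with no overlap. Gstm6 and Gstm4 also fell, with log2 fold changes of -0.46 ± 0.12 (adjusted p = 0.00147) and -0.43 ± 0.14 (adjusted p = 0.00912), the latter overlapping, lost with 48 livers and turned in sign by library-size scaling. Gstm2 was at -0.59 ± 0.35 (adjusted p = 0.147) and was not called.

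In the pi class, a cluster on chromosome 19, the 2 near-identical genes rose and the other fell. Gstp2 (chr19:4090285-4096023) showed the largest rise of all members, from 2.58 CPM (1.64 to 3.33) to 45.8 CPM (24.4 to 137), or 22.6-fold, a log2 fold change of 4.50 ± 0.43 (adjusted p = 6.41e-12). Gstp1 (chr19:4085405-4088068) was far more abundant and went from 521 CPM (467 to 770) to 1164 CPM (926 to 1389), a log2 fold change of 1.04 ± 0.24 (adjusted p = 2.96e-04). Neither gene's groups overlapped. Gstp3 (chr19:4106035-4109569), which shares no 100-base window with them, was at 18.6 CPM (15.95 to 28.5) in DN:WT and 13.9 CPM (12 to 17.7) in DN:HOM, and it fell with overlapping groups and a log2 fold change of -0.53 ± 0.18 (adjusted p = 0.00936).

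All 3 theta-class members fell. Gstt3 (chr10:75609940-75617256) dropped furthest, from 32.3 CPM (21.2 to 37.5) to 3.84 CPM (3.58 to 8.38), a log2 fold change of -2.59 ± 0.23 (adjusted p = 9.93e-13), and Gstt1 (chr10:75618994-75634445), which acts on halogenated methanes, from 309 CPM (251 to 347) to 108 CPM (87.4 to 133), a log2 fold change of -1.46 ± 0.11 (adjusted p = 1.18e-14). Neither overlapped between groups. Gstt2 was at -0.51 (adjusted p = 0.0432), a call lost with all 48 livers and in 8 of 46 fits without 1 liver (DN:WT animals 2, 5, 17 and 28 and DN:HOM animals 9, 15, 31 and 34). Among the other GSTs, Gstk1 (chr6:42222830-42227386), the kappa-class enzyme of mitochondria and peroxisomes, fell from 163 CPM (135 to 168) to 66.4 CPM (56.1 to 79.3), a log2 fold change of -1.24 ± 0.10 (adjusted p = 1.45e-14). Gstz1, the maleylacetoacetate isomerase of tyrosine breakdown, had a log2 fold change of -1.24 ± 0.09 (adjusted p = 1.03e-15). Both had groups that did not overlap. Gsto1, which can reduce dehydroascorbate, had a log2 fold change of -0.26 ± 0.11 (adjusted p = 0.0418), and lost its call with 48 livers and in 8 of 46 fits without 1 liver (DN:WT animals 2, 7 and 17 and DN:HOM animals 9, 15, 18, 31 and 34). Gstcd, at 0.16 ± 0.13 (adjusted p = 0.303), was not called.

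The members of the UGT1 cluster went both ways, although their transcripts share the downstream exons. Ugt1a1 (chr1:88139679-88147724), the bilirubin enzyme, fell from 152 CPM (119 to 180) to 51.1 CPM (38.3 to 82.3), a log2 fold change of -1.42 ± 0.17 (adjusted p = 1.22e-09). Ugt1a5 (chr1:88093707-88147724) showed the largest fall of any member, from 25.2 CPM (12.1 to 39.8) to 1.23 CPM (0.719 to 2.28), or 18.5-fold, a log2 fold change of -4.21 ± 0.51 (adjusted p = 2.42e-09). Its log2 fold change was -2.02 with all 48 livers as labelled, and Sult1e1 fell further at -2.89. In the opposite direction, Ugt1a9 (chr1:87998450-88147724) rose from 7.38 CPM (4.36 to 13.3) to 22.4 CPM (18.4 to 32.03), a log2 fold change of 1.53 ± 0.36 (adjusted p = 2.87e-04). The groups did not overlap for these 3 genes. The phenol enzymes Ugt1a6a and Ugt1a6b fell less, with log2 fold changes of -0.49 ± 0.18 (adjusted p = 0.0146) and -0.86 ± 0.12 (adjusted p = 6.28e-08), and the groups overlapped for the first only.

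In the UGT2 family, a set of steroid and drug glucuronosyltransferases on chromosome 5, the most abundant gene was not called and the next fell. Ugt2b5 (chr5:87272226-87288211) was at 942 CPM (801 to 974) in DN:WT and 798 CPM (679 to 981) in DN:HOM, a log2 fold change of -0.14 ± 0.12 (adjusted p = 0.322), a value that turned to a called rise of 0.29 with library-size scaling. Ugt2b1 (chr5:87064497-87074389), nearly as abundant, fell from 773 CPM (513 to 963) to 144 CPM (99.6 to 218), a log2 fold change of -2.30 ± 0.19 (adjusted p = 6.68e-14). The Ugt2b1 ranges were far apart. The low-level Ugt2b37 (chr5:87388352-87402663) rose from 1.27 CPM (0.986 to 2.88) to 5.22 CPM (3.14 to 16.3), a log2 fold change of 2.03 ± 0.37 (adjusted p = 7.49e-06). Ugt2a3 fell with no overlap, at -1.04 ± 0.12 (adjusted p = 9.29e-10), and Ugt2b36 with overlap, at -0.35 ± 0.09 (adjusted p = 0.00103), the latter turning sign with library-size scaling. Ugt2b34, Ugt2b35 and Ugt2b38 were not called, at -0.09, 0.03 and 0.30. The UGT3 genes, which transfer sugars other than glucuronic acid, both fell, Ugt3a1 (chr15:9335636-9371564) from 410.1 CPM (353 to 492) to 224 CPM (174 to 290.2), a log2 fold change of -0.88 ± 0.10 (adjusted p = 5.99e-10) and Ugt3a2 with a log2 fold change of -1.54 ± 0.17 (adjusted p = 1.02e-10).

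The sulphotransferases fell in 7 of 8 members and none rose. Sult2a8 (chr7:14144611-14180694), which sulphates bile acids and carries almost all of the SULT2 level, went from 806 CPM (631 to 1003) to 110 CPM (29.3 to 313), or 6.86-fold, a log2 fold change of -2.78 ± 0.32 (adjusted p = 8.00e-10). Its low-level neighbour Sult2a7 (chr7:14198976-14228155) went from 2.26 CPM (1.69 to 3.10) to 0.197 CPM (0 to 1.14), a log2 fold change of -2.35 ± 0.41 (adjusted p = 3.26e-06). Sult1a1 (chr7:126271299-126275615), the phenol sulphotransferase, was at 235 CPM (189 to 274) in DN:WT and 82.8 CPM (56.1 to 105) in DN:HOM, a log2 fold change of -1.58 ± 0.13 (adjusted p = 1.93e-13). In none of these 3 did the groups overlap. Sult1d1 (chr5:87702504-87716933), which acts on catecholamines, fell from 169 CPM (154 to 207) to 86.2 CPM (75.4 to 121), a log2 fold change of -0.95 ± 0.13 (adjusted p = 3.74e-08), and Sult1b1, which acts on thyroid hormones, had a log2 fold change of -1.51 ± 0.19 (adjusted p = 4.52e-09). Sult5a1 (chr8:123866931-123885779) fell from 12.2 CPM (8.42 to 16.7) to 3.05 CPM (1.68 to 4.26), a log2 fold change of -2.08 ± 0.34 (adjusted p = 1.45e-06). These 3 also had groups that did not overlap.

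Sult1e1 (chr5:87723828-87739461), the oestrogen sulphotransferase, had the lowest level per length of the members in DN:WT and DN:HOM, while in KO:WT it stood at rank 40 of 45 and Gstcd was lowest. It was at 0.591 CPM (0.135 to 6.87) in DN:WT and 0.137 CPM (0.0473 to 0.333) in DN:HOM, with overlap and a log2 fold change of -3.31 ± 0.87 (adjusted p = 0.00114). Its highest liver was DN:WT animal 7 at 6.87 CPM, and without it the log2 fold change was -2.31 with an adjusted p of 0.0222. Sult1c2, at -0.09 ± 0.28 (adjusted p = 0.795), was not called.

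**Figure D3:**
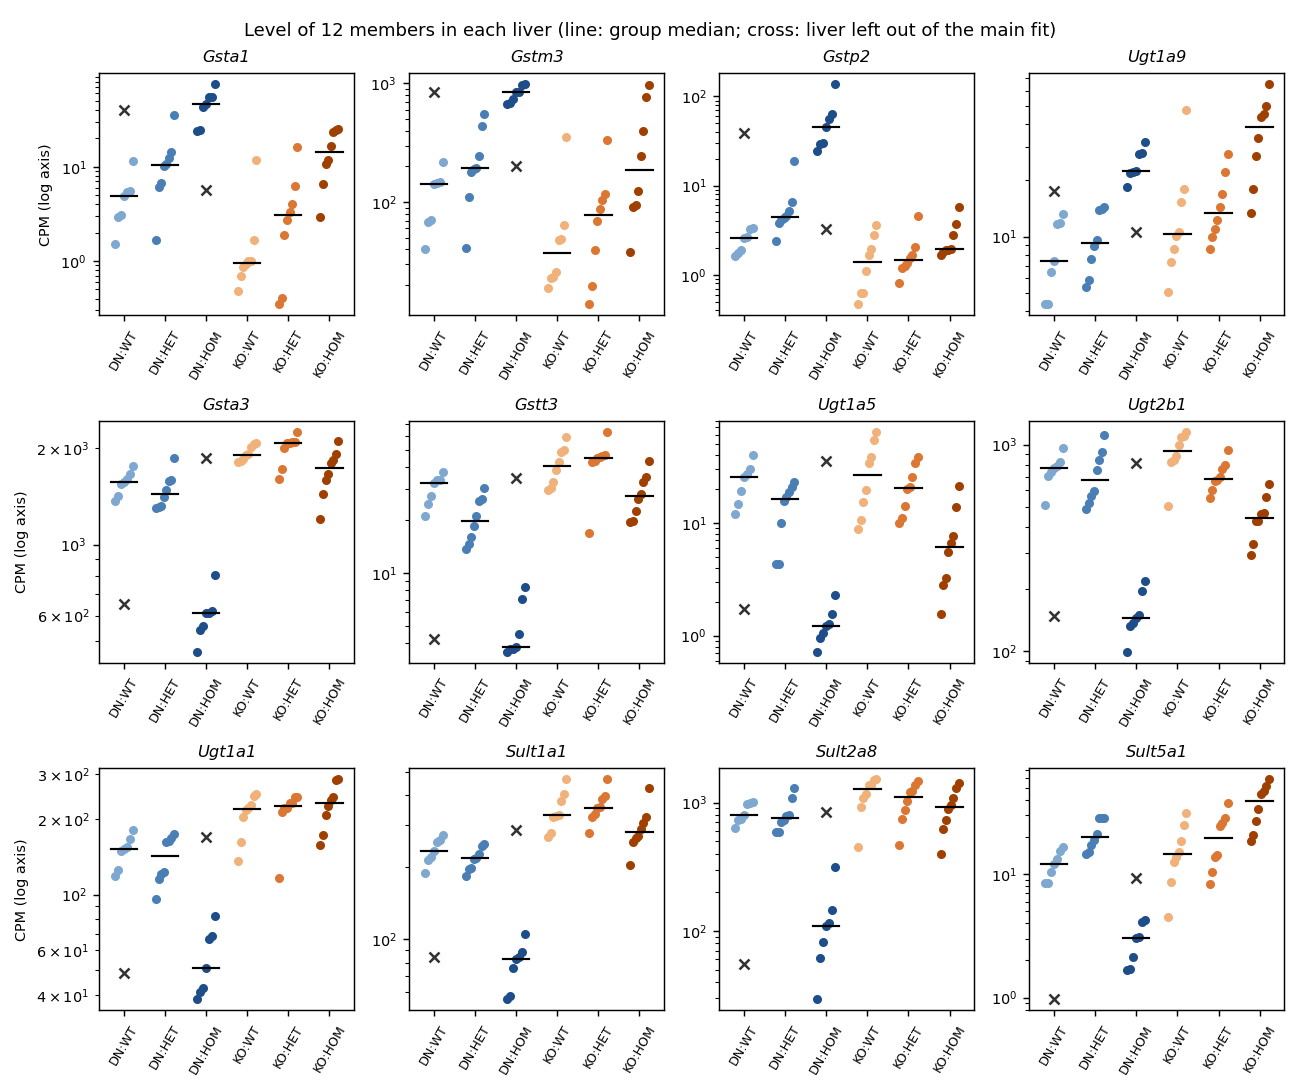
CPM scaled with TMM of 12 members in each liver, by group, on a log axis, with the group median as a line and a cross for a liver that was set aside. The 7 DN:HOM livers of Gstp2 lie between 24.4 and 137 CPM, all above the DN:WT livers that were kept, and those of Sult2a8 between 29.3 and 313 CPM, all below them.

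Summed over the members of a family, the DN:HOM liver held less of most families and more of the mu and pi classes. The GST alpha sum was 1669 CPM (1435 to 1871) in DN:WT and 895 CPM (719.6 to 1010) in DN:HOM, a ratio of the mean sums of 0.525. For GST mu the ratio was 1.67 and for GST pi 2.10, while the sum of all GST members was at 1.08 (1.46 with library size alone). GST theta had a ratio of 0.402 and the other GSTs 0.455.

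The SULT2 sum was 807 CPM (634 to 1005) in DN:WT and 111 CPM (29.3 to 314) in DN:HOM, a ratio of 0.146, the lowest of the families, and of 0.288 with all 48 livers as labelled. The ratio was 0.413 for SULT1, 0.481 for UGT1, 0.714 for UGT2, 0.515 for UGT3 and 0.236 for Sult5a1, the single member of its family. With library size alone the ratios of the GST alpha, theta, UGT1 and UGT2 sums were 0.706, 0.540, 0.645 and 0.960, and no family's direction turned. With all 48 livers as labelled the ratios of the GST alpha, mu, pi and theta sums were 0.647, 1.52, 1.71 and 0.512, and those of SULT1, UGT1, UGT2, UGT3 and Sult5a1 were 0.545, 0.608, 0.793, 0.620 and 0.342. The sum of all 45 members had a ratio of 0.837 that turned to 1.13 with library size alone.

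**Figure D4:**
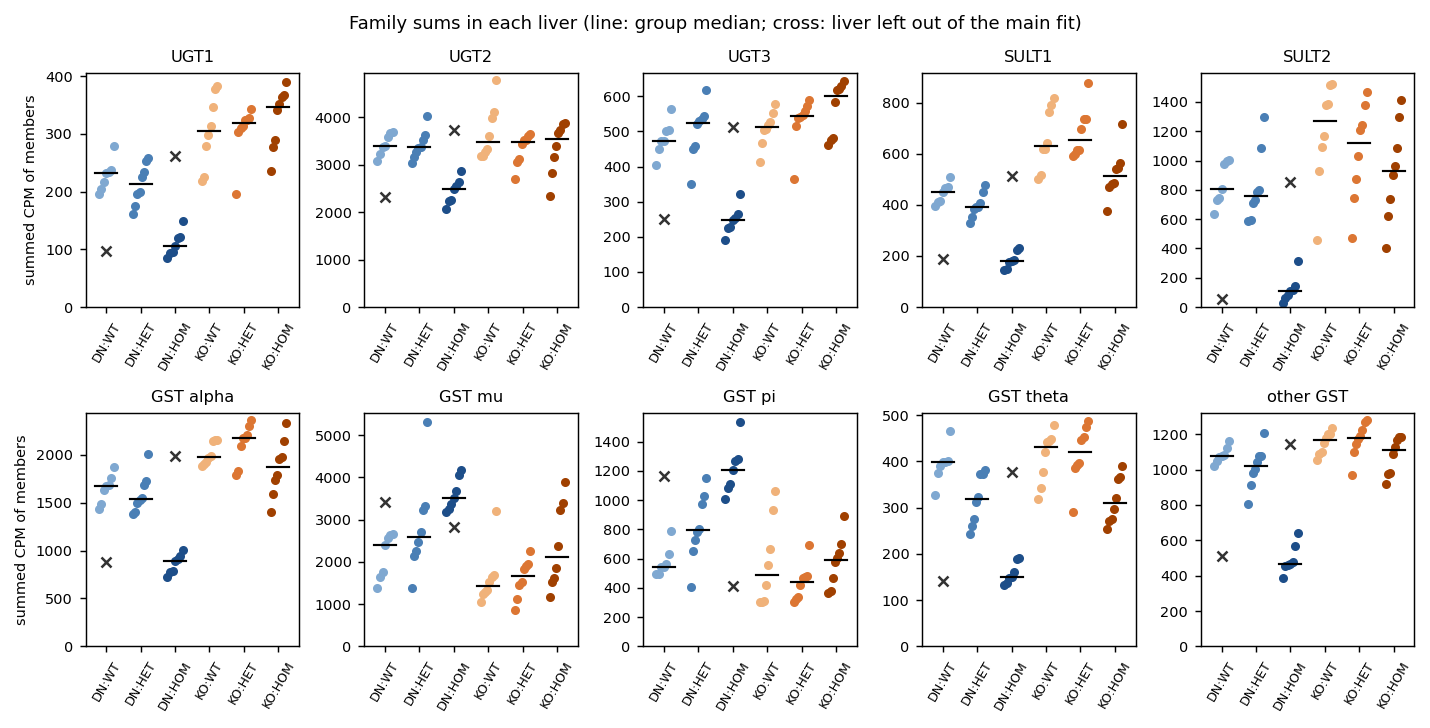
Sum of CPM scaled with TMM over the members of each of 10 families in each liver, by group, with the median as a line and a cross for a liver that was set aside. The SULT2 sum falls from a DN:WT median of 807 to a DN:HOM median of 111 CPM, and the KO:WT and KO:HOM ranges overlap in every family shown.

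The second comparison asks the same of the loss of both LXRα copies. Fewer members changed than under the dominant negative allele, and the alpha-class GSTs were the one family of several members in which most rose. In KO:HOM against KO:WT 14 of 45 members were called, 7 higher and 7 lower, beside 19.4% of all genes, 11.5% higher and 7.87% lower. In 8 members the change was at least 2-fold, beside 7.58% of all genes, and in 1 member, Gsta2, the groups did not overlap, beside 2.49% of all genes. The median log2 fold change was 0.03 over members and -0.02 over all genes, and with all 48 livers 12 were called, 7 higher and 5 lower, beside 12.9% of genes. Library-size scaling gave 15 calls, 10 higher and 5 lower, and 2622 genes higher and 437 lower over all genes. It turned the sign of 5 members, none of them called, namely Gstm4, Gstk1, Gstz1, Sult1e1 and Ugt2a3.

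The inducible alpha-class genes rose. Gsta2 went from 21.95 CPM (17.1 to 35.3) to 70.3 CPM (44.99 to 103), a log2 fold change of 1.56 ± 0.26 (adjusted p = 3.41e-05). Gsta1 was at 0.965 CPM (0.485 to 11.8) in KO:WT and 14.2 CPM (2.94 to 25.1) in KO:HOM, a log2 fold change of 2.70 ± 0.59 (adjusted p = 7.11e-04), and Gsta13 at 0.612 CPM (0.217 to 7.24) in KO:WT and 9.48 CPM (1.59 to 16.8) in KO:HOM, a log2 fold change of 2.75 ± 0.60 (adjusted p = 8.01e-04). KO:WT animal 23 had the highest Gsta1 and Gsta13 of its group, and without it the log2 fold changes were 4.0 and 4.05. Gsta4 rose from 47.8 CPM (38.1 to 67.8) to 67.5 CPM (54.5 to 84.7), a log2 fold change of 0.52 ± 0.15 (adjusted p = 0.00956), and Gsta3, at -0.19 ± 0.09 (adjusted p = 0.156), was not called.

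Of the remaining GSTs, Gstm3 rose and 4 fell. Gstm3 went from 37.01 CPM (18.8 to 353) to 185 CPM (37.7 to 962), a log2 fold change of 2.16 ± 0.61 (adjusted p = 0.00899), again with KO:WT animal 23 highest in its group (log2 fold change 3.23 without it). Gstm7 was lower, at 48.7 CPM (39.8 to 74) in KO:WT and 38.8 CPM (29.3 to 42.6) in KO:HOM, a log2 fold change of -0.50 ± 0.10 (adjusted p = 2.80e-04). Gstp3 was at 18.9 CPM (10.5 to 36.5) in KO:WT and 10.7 CPM (9.62 to 17.1) in KO:HOM, a log2 fold change of -0.74 ± 0.17 (adjusted p = 0.00127), while Gstp1 and Gstp2 were not called, at 0.04 ± 0.23 (adjusted p = 0.928) and 0.79 ± 0.44 (adjusted p = 0.218). Gstt1, from 314 CPM (223 to 357) to 229.8 CPM (193 to 293), a log2 fold change of -0.33 ± 0.10 (adjusted p = 0.0177), lost its call with all 48 livers and without KO:WT animal 34, and so did Gstt3 with all 48 livers and in 28 of 46 fits without 1 liver. Gstt3 went from 40.4 CPM (29.8 to 59.1) to 27.3 CPM (19.5 to 43.3), a log2 fold change of -0.54 ± 0.20 (adjusted p = 0.0473). Gstm1 was not called at 0.49 ± 0.22 (adjusted p = 0.118), but it was without KO:WT animal 23 (0.70, adjusted p = 0.0145). Gstk1 was at -0.08 ± 0.09 (adjusted p = 0.575).

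Among UGTs, Ugt1a9 rose and Ugt1a5 and Ugt2b1 fell, the same members in the same directions as in DN:HOM. Ugt1a9 went from 10.4 CPM (5.10 to 47.3) to 38.5 CPM (13.5 to 65.1), a log2 fold change of 1.27 ± 0.33 (adjusted p = 0.00422), Ugt1a5 from 26.7 CPM (8.74 to 63.98) to 6.05 CPM (1.55 to 20.97), a log2 fold change of -1.94 ± 0.41 (adjusted p = 5.71e-04) and Ugt2b1 from 935 CPM (506 to 1153) to 444 CPM (293 to 644), a log2 fold change of -1.04 ± 0.17 (adjusted p = 2.55e-05). In each the groups overlapped. Ugt1a1 was at 0.13 ± 0.15 (adjusted p = 0.615), Ugt2b5 at 0.02 ± 0.11 (adjusted p = 0.914), Ugt2b37 at 0.14 ± 0.36 (adjusted p = 0.828) and Ugt3a1 at 0.16 ± 0.09 (adjusted p = 0.236), none of them called. Ugt1a6b was called without KO:WT animal 23 (0.32, adjusted p = 0.0341), and Ugt2b35 without KO:HOM animal 11 or KO:WT animal 31.

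Among SULTs, Sult1d1 fell from 258 CPM (188 to 344) to 172 CPM (136 to 245), a log2 fold change of -0.58 ± 0.12 (adjusted p = 4.78e-04), and Sult5a1 rose from 14.5 CPM (4.53 to 31.4) to 39.4 CPM (18.7 to 58.8), a log2 fold change of 1.23 ± 0.29 (adjusted p = 0.00174), opposite in sign to its change in DN:HOM. Sult2a8, at 1271 CPM (453 to 1519) in KO:WT and 927 CPM (399 to 1413) in KO:HOM, was not called at -0.35 ± 0.28 (adjusted p = 0.426), nor were Sult2a7 (0.78 ± 0.33, adjusted p = 0.0963), Sult1a1 (-0.24 ± 0.12, adjusted p = 0.163) and Sult1e1 (-0.10 ± 0.66, adjusted p = 0.940). Sult1a1 was called without KO:HOM animal 11 (-0.34, adjusted p = 0.0378). Over the families the KO:HOM to KO:WT ratio of the mean sums was 1.47 for GST mu and 2.34 for Sult5a1, and between 0.776 and 1.11 for the other families.

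The third comparison tests whether the homozygous effects differed between the alleles, with each study taken against its own wild-type livers, since study and site cannot be told apart. For 24 of 45 members they did, 5 with a higher and 19 with a lower log2 fold change in DN:HOM, beside 34.7% of all genes. This count depended on the libraries that were set aside: with all 48 as labelled it was 11, all lower in DN, beside 10.5%. Library-size scaling called 23 members, 5 of them higher, and 5929 genes higher and 1336 lower in place of 2586 and 2870.

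The differences (log2 fold change in DN minus that in KO) were largest for Gstp2 (3.72 ± 0.61, adjusted p = 5.41e-06), Sult5a1 (-3.31 ± 0.45, adjusted p = 1.65e-07), Sult1e1 (-3.21 ± 1.10, adjusted p = 0.0198), Sult2a7 (-3.13 ± 0.53, adjusted p = 8.31e-06) and Sult2a8 (-2.43 ± 0.42, adjusted p = 1.39e-05). Ugt1a5 had a difference of -2.27 ± 0.64 (adjusted p = 0.00489), which was -0.08 with all 48 livers. The DN log2 fold changes behind the differences of Gstp2, Sult2a7, Sult2a8, Ugt1a5 and Ugt2b1 shrank by over 1.5 times in fold with all 48 livers. The calls of Gstp2 (1.99, adjusted p = 0.114), Sult1e1, Sult2a8, Ugt1a5, Ugt2b1 and Gstp1 were among those lost with all 48 livers as labelled, while Sult5a1, Sult2a7, Gsta3, Gstz1, Gstk1 and Ugt1a1 were called with both. The Sult1e1 call was also lost without DN:WT animal 7 (-2.22, adjusted p = 0.106) or without KO:HOM animal 22 (adjusted p = 0.0503). Of the abundant enzymes, Gsta3 (-1.19 ± 0.14, adjusted p = 4.94e-09), Gstz1 (-1.12 ± 0.12, adjusted p = 5.76e-10), Gstk1 (-1.16 ± 0.13, adjusted p = 2.67e-09), Ugt1a1 (-1.55 ± 0.23, adjusted p = 7.60e-07) and Ugt2b1 (-1.26 ± 0.25, adjusted p = 8.20e-05) had lower effects in DN, and Gstp1 (1.0 ± 0.33, adjusted p = 0.0160) a higher one. Of members that rose in both studies Gsta4 passed this test at 0.64 ± 0.21 (adjusted p = 0.0165), and Gsta1, Gsta2, Gsta13, Gstm3 and Ugt1a9 did not: Gsta1 was at 0.50 ± 0.82 (adjusted p = 0.675), Gstm3 at 0.63 ± 0.86 (adjusted p = 0.613) and Ugt1a9 at 0.27 ± 0.48 (adjusted p = 0.704), and a p that misses the threshold does not show that the alleles act alike. With all 48 livers as labelled the differences of Gsta1, Gsta2, Gsta13, Gstm3 and Ugt1a9 turned in sign, and the Gsta4 call was lost. Sult1d1, at -0.37 ± 0.18 (adjusted p = 0.101), passed the test without DN:HOM animal 33, KO:WT animal 33 or KO:WT animal 34, and Gstm2, at -0.90 ± 0.48 (adjusted p = 0.142), without KO:WT animal 23.

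With a single copy of either allele no member passed the same test. In DN:HET against DN:WT edgeR called 0 members, beside 2.30% of all genes, with 10 at an unadjusted p under 0.05 beside 13.3% of genes; DESeq2 called 1, Gstp2, beside 2.98%. In KO:HET against KO:WT edgeR called 0, beside 0.0191% of genes, with 5 at an unadjusted p under 0.05 beside 6.24%; DESeq2 called 1, Gsta2, beside 0.0668%. Of the marker lists, 4 of 10 macrophage and 8 of 10 T cell markers were called higher in DN:HET (0 and 3 with all 48 livers), and their part in these values was not tested. Single livers stood out within the heterozygous groups. Gstp2 was at 4.45 CPM (2.37 to 18.9) in DN:HET, a log2 fold change of 1.37 ± 0.41 (adjusted p = 0.0638), and Gsta1 at 10.5 CPM (1.68 to 35.5), a log2 fold change of 1.30 ± 0.57 (adjusted p = 0.281). The Gstp2 value was -0.17 with all 48 livers. For Gsta1, the set-aside library labelled DN:WT animal 10 stood at 39.6 CPM, above every DN:HET liver. In both genes the median lay between those of DN:WT and DN:HOM. Sult5a1 was at 20.1 CPM (14.5 to 28.7) in DN:HET, a log2 fold change of 0.83 ± 0.30 (adjusted p = 0.153), above both DN:WT and DN:HOM medians. Gsta2 was at 39.7 CPM (18.9 to 110.2) in KO:HET, a log2 fold change of 1.08 ± 0.26 (adjusted p = 0.197). Gstp2 was called without DN:HET animal 1, 8 or 14, DN:HOM animal 31 or KO:HET animal 9, Gstt2 (-0.59 ± 0.21, adjusted p = 0.145) without DN:HET animal 8 or 16, and Gsta2 without KO:HET animal 15. Of the 27 members that fell in DN:HOM, the DN:HET median lay within the DN:WT range for 22, below it for Gstt2, Gstt3, Gstz1 and Sult1d1, and above it for Sult5a1. Gstt2 was at 30.8 CPM (20.1 to 80.5) in DN:HET against 44.5 to 81.5 CPM in DN:WT, and the medians of Gstt3, Gstz1 and Sult1d1 were 19.8, 795 and 139 CPM against lowest DN:WT livers of 21.2, 817 and 154 CPM. Of those within it, Sult2a8 was at 757 CPM (587 to 1292) in DN:HET, Ugt2b1 at 676 CPM (488 to 1112) and Gsta3 at 1443 CPM (1300 to 1873). Against the heterozygous livers, which also entered the comparisons above, 34 members were called in DN:HOM, beside 53.9% of all genes, and 12 in KO:HOM, beside 10.6%. With all 48 livers these were 33, beside 46.4%, and 3, beside 4.72%.

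The wild-type livers of the 2 studies differed in 7 members, beside 12% of all genes. Gsta3 (0.31), Sult1a1 (0.56), Sult1d1 (0.63), Ugt1a1 (0.48) and Ugt2a3 (0.43) were higher in KO:WT, and Gstm4 (-0.70) and Ugt2b35 (-0.44) lower, all as log2 fold changes of KO:WT over DN:WT. Again 7 members were called with all 48 livers as labelled, beside 12.7% of genes, but 3 were higher and 4 lower: Gsta3 and Ugt1a1 lost their calls, and Gsta1 (-2.01) and Gstp2 (-2.15) were called lower. Of the markers, 4 of 10 hepatocyte and 1 of 8 endothelial markers were higher and 3 of 5 erythroid markers lower in KO:WT, while all 48 livers gave calls for 3 hepatocyte, 0 endothelial, 1 erythroid, 3 cholangiocyte, 2 macrophage and 2 stellate and matrix markers. The hepatocyte sum was 88250 to 111500 CPM in KO:WT against 75050 to 91260 in DN:WT, the erythroid sum 179 to 481 against 376 to 441.1, and their part in these differences was not tested.

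The supply of the conjugating groups and the export of the products were read from lists of other genes, by counts with no set test. They stand beside the 59.1% of all genes called in DN:HOM (29.1% higher, 30% lower) and the 19.4% in KO:HOM (11.5% higher, 7.87% lower). In the order given below, with all 48 livers as labelled, 5, 3, 10, 3, 11, 9, 8 and 2 genes of these lists were called in DN:HOM and 1, 0, 2, 1, 1, 4, 1 and 0 in KO:HOM. For UDP-glucuronic acid 2 of 6 genes rose and 3 fell in DN:HOM (median log2 fold change -0.30, all genes -0.01). Ugdh, which makes UDP-glucuronic acid, rose in DN:HOM (0.87 ± 0.13, adjusted p = 1.09e-07) and in KO:HOM (0.52 ± 0.12, adjusted p = 0.00106), the 1 called gene of its list there. Ugp2, an earlier enzyme, fell in DN:HOM (-0.83 ± 0.13, adjusted p = 5.66e-07). For PAPS 1 of 8 rose and 3 fell in DN:HOM (median -0.07), with Papss2, the PAPS synthase of liver, at -0.85 ± 0.13 (adjusted p = 5.35e-07) and Bpnt1, which removes the spent nucleotide, at -0.73 ± 0.09 (adjusted p = 2.15e-09), and none was called in KO:HOM (median -0.06). For glutathione 4 of 13 rose and 7 fell in DN:HOM (median -0.38), with the cystine importer Slc7a11 at 6.34 ± 0.86 (adjusted p = 2.62e-08) and Mat1a, the liver methionine adenosyltransferase, at -1.35 ± 0.15 (adjusted p = 1.16e-10), and in KO:HOM Slc7a11 rose (4.46 ± 0.82, adjusted p = 1.01e-04) and Cbs fell (-0.47 ± 0.11, adjusted p = 0.00151) (median 0.13).

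Slc7a11 was at 0.0697 CPM (0 to 0.263) in DN:WT, 8.42 CPM (3.07 to 15.2) in DN:HOM, 0.0384 CPM (0 to 0.470) in KO:WT and 2.69 CPM (0.309 to 6.15) in KO:HOM. Of 5 membrane-bound and prostaglandin glutathione transferases tested, 2 rose and 1 fell in DN:HOM (median 0.80), with Hpgds, the haematopoietic prostaglandin D synthase, at 2.71 ± 0.33 (adjusted p = 2.98e-09) and Mgst1 at -1.0 ± 0.09 (adjusted p = 7.11e-13), and in KO:HOM Hpgds was at 2.34 ± 0.32 (adjusted p = 1.80e-06) and Mgst1 at -0.25 ± 0.08 (adjusted p = 0.0271) (median 0.21). Of 13 other conjugation enzymes 1 rose and 11 fell in DN:HOM (median -0.81), with Inmt, a methyltransferase, at -4.14 ± 0.23 (adjusted p = 1.91e-18), Nat1, an acetyltransferase, at -1.87 ± 0.25 (adjusted p = 1.49e-08), Gnmt, the glycine methyltransferase, at -1.61 ± 0.16 (adjusted p = 1.04e-11) and Ugt8a, which makes galactosylceramide, at 3.68 ± 0.49 (adjusted p = 1.65e-08). In KO:HOM none rose and 2 fell (median -0.06), Inmt (-0.81 ± 0.19, adjusted p = 0.00218) and the arsenic methyltransferase As3mt (-0.70 ± 0.15, adjusted p = 5.49e-04).

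Among 10 exporters and importers of conjugates 4 rose and 6 fell in DN:HOM (median -0.37), and 4 rose and 1 fell in KO:HOM (median 0.41). The efflux pumps Abcc4 (2.56 ± 0.36, adjusted p = 7.79e-08), Abcc1 (2.21 ± 0.31, adjusted p = 4.72e-08) and Abcb1a (2.12 ± 0.38, adjusted p = 6.29e-06) rose in DN:HOM and the uptake carrier Slco1a1 fell (-3.51 ± 0.46, adjusted p = 1.20e-08). Of 14 xenobiotic and NRF2 regulators 2 rose and 9 fell in DN:HOM (median -0.29), with Ahr at 0.57 ± 0.14 (adjusted p = 6.58e-04) and Ppara at -1.47 ± 0.17 (adjusted p = 5.66e-10), Nr1i3 (CAR) at -1.03 ± 0.20 (adjusted p = 2.39e-05) and Nfe2l2 (NRF2) at -0.34 ± 0.13 (adjusted p = 0.0232), whose sign turns with library-size scaling, and in KO:HOM 1 fell, Hnf4a at -0.35 ± 0.10 (adjusted p = 0.0137) (median -0.12). Of 9 sex-biased liver regulators 1 rose and 4 fell in DN:HOM (median -0.19), with the growth hormone receptor Ghr at -1.22 ± 0.11 (adjusted p = 7.78e-13) and Onecut1 at -1.56 ± 0.69 (adjusted p = 0.0497), and none was called in KO:HOM (median -0.26).

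Of the 22 genes under the level limit, 2 had enough reads for the test and 7 had no read in any liver. Ugt1a7c rose in DN:HOM (log2 fold change 1.43 ± 0.34, adjusted p = 3.23e-04) and in KO:HOM (1.13 ± 0.32, adjusted p = 0.00808). Its medians were only 0.41 CPM in DN:WT, 0.98 in DN:HOM, 0.34 in KO:WT and 1.02 in KO:HOM. It shared 70% of its windows with other genes, so its values are uncertain. Ugt1a2 was not called in either.

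The promoters of the members, from 250 bases before to 50 after the annotated start, were searched in GRCm39 on both strands for 3 motifs. The core of the antioxidant response element bound by NRF2, TGACNNNGC, was in 12.5% of 21770 promoters and in 2 of 45 members, Gsta3 and Gstm5. The STAT5 core TTCNNNGAA was in 8.81% and in 3 members, Gsta1, Gsta13 and Sult1b1. The direct repeat of AGGTCA with 4 spacer bases, the element of LXR, was in 0 of the 21770 promoters in this exact form. That search could therefore not tell members from other genes, and looser forms or sites further away were not searched. No member held more than 1 of the motifs, so no matches overlapped. The matches in the members given by liver are shown with 15 bases on each side and the motif in capitals, and those of Gsta1 and Gsta13 are the same.
Gsta1 (chr9:78137774-78137812, + strand) and Gsta13 (chr9:78164247-78164285, + strand), STAT5 core: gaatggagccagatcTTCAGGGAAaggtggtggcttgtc
Gsta3 (chr1:21310673-21310711, + strand), antioxidant response element core: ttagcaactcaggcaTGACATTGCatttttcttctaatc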

How the data were processed

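Livers of 48 mice were sequenced as stranded bulk mRNA libraries. The authors aligned reads with STAR 2.5.0a to GRCm39 and deposited one table of raw gene counts per liver, in which a read is counted only if it maps to 1 place and 1 gene; the column for the reverse strand was used here, since it held 6.97 to 8.62 times the reads of the other. The 4 summary lines that name no gene (24.0 to 35.0% of the column) were left out. Gene IDs were matched to symbols in the GRCm39 annotation for 54749 of 55416 (98.8%).

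Counts were filtered (filterByExpr), scaled (TMM) and tested with edgeR 4.0.16 (quasi-likelihood, 6 group means, R 4.3.3), with Benjamini-Hochberg adjustment over 15711 genes. On data simulated for DN:HOM against DN:WT the test found 82 of 100 genes given a log2 change of 1 and 98 of 100 given 2, and called 12 of 15191 unchanged ones. The simulation changed only these genes in DN:HOM, as many up as down, with no shift in the make-up of the libraries. The real comparison called 59.1% of genes, so these rates need not hold for it. DESeq2 1.42.0, library-size and upper-quartile scaling, other filters and strands, each study alone, all 48 livers and leaving out each liver were alternatives. Family sums and list counts had no test.

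The 27 members given by liver were those with the 8 largest rises and falls past the threshold in each homozygous comparison, the 6 largest differences of effect, and the highest level per length of each family; of the lists, up to 4 called genes were named. The members and lists, and the setting aside of 2 libraries, were chosen with earlier results of these data known. Each liver is 1 mouse. Replicate numbers in the labels are animal numbers and pair no samples.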

Additional observations from a re-analysis of the deposited data

Results flagged for a closer look

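Among 162 sets of 8 or 7 livers, 1 for each of the 27 members described by liver in each of the 6 groups, 28 had a liver far from the rest of its group (Dixon's test at the 95% level). The 28 cannot be set against a chance rate of 5%, because the same livers enter every member's sets and the CPM were not log-transformed. The values are CPM scaled with TMM, and the next liver stands beside each.

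Gsta1 had a high liver at 11.6 CPM in DN:WT (next 5.47), 35.5 CPM in DN:HET (next 14.5), 11.8 CPM in KO:WT (next 1.67) and 16.3 CPM in KO:HET (next 6.22). Gsta13 had a high liver at 18.7 CPM in DN:HET (next 9.01), 7.24 CPM in KO:WT (next 0.975) and 9.27 CPM in KO:HET (next 3.87). Gstm1 had a high liver at 4324 CPM in DN:HET (next 2602) and 2425 CPM in KO:WT (next 1296). Gstm3 had a high liver at 353 CPM in KO:WT (next 63.6) and 335 CPM in KO:HET (next 116). Gstp1 had a high liver at 668 CPM in KO:HET (next 464). Gstp2 had a high liver at 18.9 CPM in DN:HET (next 6.63), 137 CPM in DN:HOM (next 64.3) and 4.604 CPM in KO:HET (next 2.04). Gstt1 had a low liver at 216 CPM in KO:HET (next 290.2). Gstt3 had a low liver at 16.97 CPM in KO:HET (next 42.9).

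Ugt1a1 had a low liver at 117 CPM in KO:HET (next 213). Ugt1a9 had a high liver at 47.3 CPM in KO:WT (next 17.96). Ugt2b37 had a high liver at 16.3 CPM in DN:HOM (next 7.004) and 3.03 CPM in KO:HET (next 1.02). Ugt3a1 had a low liver at 326 CPM in KO:HET (next 442).

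Sult1d1 had a high liver at 207 CPM in DN:WT (next 176) and 121 CPM in DN:HOM (next 94.9). Sult1e1 had a high liver at 6.87 CPM in DN:WT (next 1.78), 6.60 CPM in DN:HET (next 0.752) and 4.95 CPM in KO:HOM (next 2.08). Sult2a8 had a high liver at 313 CPM in DN:HOM (next 146).

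The differences of effect between the alleles (log2 fold change in DN:HOM against DN:WT minus that in KO:HOM against KO:WT, edgeR, adjusted over all genes) passed the test for 24 members.

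It was higher in DN for Gsta4 0.64 (adjusted p = 0.0165), Gstm5 1.02 (adjusted p = 4.33e-05), Gstp1 1.0 (adjusted p = 0.0160), Gstp2 3.72 (adjusted p = 5.41e-06) and Ugt2b37 1.89 (adjusted p = 0.00328). None of these 5 was called with all 48 livers as labelled, where their values were 0.34, 0.66, 0.69, 1.99 and 1.46 in that order (adjusted p = 0.0879 for Gstm5, 0.0693 for Ugt2b37 and higher for the others). It was lower in DN for the GST members Gsta3 -1.19 (adjusted p = 4.94e-09), Gstt1 -1.13 (adjusted p = 1.33e-07), Gstt3 -2.05 (adjusted p = 8.79e-07), Gstk1 -1.16 (adjusted p = 2.67e-09) and Gstz1 -1.12 (adjusted p = 5.76e-10). It was lower in DN for the SULT members Sult1a1 -1.34 (adjusted p = 1.48e-07), Sult1b1 -1.71 (adjusted p = 8.94e-07), Sult1e1 -3.21 (adjusted p = 0.0198), Sult2a7 -3.13 (adjusted p = 8.31e-06), Sult2a8 -2.43 (adjusted p = 1.39e-05) and Sult5a1 -3.31 (adjusted p = 1.65e-07). It was lower in DN for the UGT members Ugt1a1 -1.55 (adjusted p = 7.60e-07), Ugt1a5 -2.27 (adjusted p = 0.00489), Ugt1a6b -1.12 (adjusted p = 7.62e-07), Ugt2a3 -0.94 (adjusted p = 1.70e-05), Ugt2b1 -1.26 (adjusted p = 8.20e-05), Ugt2b36 -0.44 (adjusted p = 0.00432), Ugt3a1 -1.05 (adjusted p = 1.00e-07) and Ugt3a2 -1.60 (adjusted p = 2.82e-07). With all 48 livers as labelled 11 of the 19 lower calls were made, those of Gsta3, Gstt1, Gstk1, Gstz1, Sult1b1, Sult2a7, Sult5a1, Ugt1a1, Ugt1a6b, Ugt3a1 and Ugt3a2, and the value for Ugt1a5 was -0.08. There the DN log2 fold changes of Gstt3, Sult2a7, Sult2a8, Ugt1a5 and Ugt2b1 were smaller by over 1.5 times in fold.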

How the results depend on the processing

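The number of members called in DN:HOM against DN:WT stayed within 1.5 times of 38 under all 60 alternatives, and that in KO:HOM against KO:WT within 1.5 times of 14 except where a change of at least 2-fold was also asked for (8). In DN:HET against DN:WT the count of 0 became 1 with DESeq2, 1 with library size alone and 1 with each study fitted alone, and in KO:HET against KO:WT it became 1 with DESeq2. The count of members whose effects differed, 24, became 11 with all 48 livers, 11 with all 48 livers and DESeq2, and 13 with all 48 livers and library size alone (chosen after seeing the data). Leaving out each liver in turn gave 35 to 38 members in DN:HOM, 12 to 16 in KO:HOM, 0 to 2 in DN:HET, 0 to 1 in KO:HET and 23 to 25 for the difference.

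Among log2 fold changes of the members described by liver, 1481 alternatives kept direction and side of the threshold, 48 lost the threshold, 8 gained it and 52 turned in sign, 50 of them called under neither setting. Under library-size scaling, in DN:HOM Ugt2b5 was at 0.29, and in KO:HOM Gstk1 at 0.035 and Sult1e1 at 0.015, and in DN:HET Sult2a8 at 0.019, and in the difference of effects Gstm7 at 0.12 and Ugt2b5 at 0.16. Under all 48 livers and library size alone, in DN:HOM Ugt2b5 was at 0.24, and in KO:HOM Gstk1 at 0.035 and Sult1e1 at 0.019, and in DN:HET Gsta3 at 0.066, Gsta4 at -0.12, Gstp2 at -0.32, Sult1a1 at 0.044, Sult2a8 at 0.19, Ugt1a1 at 0.064 and Ugt2b1 at 0.13, and in the difference of effects Gsta1 at -0.47, Gsta13 at -0.19, Gsta2 at -0.057, Gstm3 at -0.23, Gstm7 at 0.17, Sult1d1 at 0.087 and Ugt2b5 at 0.11. Under all 48 livers, in DN:HET Gsta3 was at 0.040, Gsta4 at -0.064, Gstp2 at -0.17, Sult1a1 at 0.012, Sult2a8 at 0.15, Ugt1a1 at 0.041 and Ugt2b1 at 0.092, and in the difference of effects Gsta1 at -0.59, Gsta13 at -0.34, Gsta2 at -0.26, Gstm1 at -0.0041, Gstm3 at -0.35 and Ugt1a9 at -0.035. Under all 48 livers and DESeq2, in DN:HET Gsta3 was at 0.045, Gsta4 at -0.067, Gstp2 at -0.16, Sult1a1 at 0.018, Sult2a8 at 0.16, Ugt1a1 at 0.046 and Ugt2b1 at 0.10, and in the difference of effects Gsta1 at -0.57, Gsta13 at -0.31, Gsta2 at -0.23, Gstm3 at -0.33, Ugt1a5 at 0.015 and Ugt1a9 at -0.0076. Without low-depth livers, in KO:HET Gstm1 was at 0.014 and Gstt1 at -0.0037. Under unstranded counts, in KO:HET Ugt1a1 was at -0.012. The exceptions, called on 1 side, were Ugt2b5 in DN:HOM with library size alone and the difference for Ugt1a5. Over all genes 48 in place of 46 livers gave 7502 in place of 9292 calls in DN:HOM, 2016 in place of 3048 in KO:HOM, 39 in place of 361 in DN:HET and 1636 in place of 5456 for the difference; the cause was not tested. No paired analysis was possible because the groups of a study share no animal number, and a number found in both studies belongs to different mice. Depth limits the members near 1 CPM, such as Sult1e1 and Sult2a7, and shared sequence limits Gsta1, Gsta13, Gstp1, Gstp2 and the UGT1 members.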
